A study of Mus musculus with 16 samples.

Results

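Gdpd5, other glycerophosphodiester phosphodiesterase genes of the mouse and the phospholipase gene Pnpla6 were followed in the hippocampus of 2 strains on 2 diets. The group comprises 7 genes, namely Gdpd5, Gdpd1, Gdpd2, Gdpd3, Gde1, Gpcpd1 and Pnpla6. Their probes were found through the RefSeq transcript that the array lists for each probe, which gave 9 of 41174 non-control probes, with 2 probes each for Gdpd1 and Pnpla6 and 1 for each other gene. All 9 were well above background on 16 of 16 arrays. The group was picked because the Gdpd5 probe differed strongly between the strains, so the strain difference of Gdpd5 is described here without a test. The other 8 probes and all diet effects carry the test of the fit.

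Glycerophosphodiesters such as glycerophosphocholine are formed when both fatty acids are cut from a membrane phospholipid, and glycerophosphodiester phosphodiesterases split them into glycerol phosphate and an alcohol such as choline. Glycerophosphocholine also serves as an organic osmolyte and as a store of choline. Some members act on other substrates. GDE2, the protein of Gdpd5, is a multi-pass membrane enzyme with its active site outside the cell, which releases proteins held by a glycosylphosphatidylinositol (GPI) anchor and promotes differentiation of motor neurons in the embryonic spinal cord.

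RNA came from the hippocampus of male mice with the AKR/J background named in the labels. SAM/P-8 is a senescence-prone strain of the senescence-accelerated mouse and SAM/R-1 is its senescence-resistant counterpart. The mice were 8 weeks old at the start and ate the rodent diet CE-2 for 8 weeks, either alone (control) or with 0.1% coral calcium hydride (CCH), with 4 arrays for each of the 4 combinations. The labels do not say whether the arrays of a group came from separate animals, so p-values measure the spread between these samples only.

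Each level is the log2 processed signal of a probe minus the 75th percentile of its array, so 0 marks that percentile, and levels of different probes were not compared with each other. A difference is called when its adjusted p from limma is under 0.05, with Benjamini-Hochberg adjustment over 29009 probes kept, and differences are given with their standard error (SE). Of 43379 non-control spots on an array, 28920 to 33333 passed Agilent's test for signal well above background. Of 14 listed markers of hippocampal neurons, 13 had a probe and all 13 were well above background on 16 of 16 arrays. Every group had a separate slide, and effects of slide and of group cannot be told apart. The SAM/P-8 CCH replicate 4 array stood apart, with a summed level of 8 striatal markers of 195.9 (in units of the array's 75th percentile) where replicates 1 to 3 of its group read 8.05 to 9.08 and no array elsewhere exceeded 19.995. Its summed level of hippocampal neuron markers, 109.9, was the lowest of the 16 arrays.

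The sequences upstream of the transcription start are shown for the 3 members whose strain difference passed the test. They are the 250 bases before the start (the 5′-most where RefSeq lists several) in the direction of the gene, from RefSeq on GRCm38.p6, in which 5 of the 7 members had an entry and Gdpd5 and Gpcpd1 did not. Capitals mark a match, on either strand, to the TATA box as spelled TATAAA, to the box that reads CCAAT, to the GC box as spelled GGGCGG or to the core of NFAT sites, which is TGGAAA.
Gdpd3 (chr7:126766164-126766413, plus strand): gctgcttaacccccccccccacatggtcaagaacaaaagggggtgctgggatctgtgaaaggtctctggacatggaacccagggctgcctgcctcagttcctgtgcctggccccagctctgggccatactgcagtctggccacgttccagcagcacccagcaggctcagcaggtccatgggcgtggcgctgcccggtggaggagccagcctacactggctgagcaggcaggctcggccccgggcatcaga
Gdpd2 (chrX:100729597-100729846, plus strand): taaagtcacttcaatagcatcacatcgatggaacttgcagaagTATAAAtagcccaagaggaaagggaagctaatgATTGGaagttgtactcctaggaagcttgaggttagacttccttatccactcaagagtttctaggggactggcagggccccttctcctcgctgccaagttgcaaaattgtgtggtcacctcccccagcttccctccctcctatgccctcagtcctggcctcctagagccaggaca
Pnpla6 (chr8:3515161-3515410, plus strand): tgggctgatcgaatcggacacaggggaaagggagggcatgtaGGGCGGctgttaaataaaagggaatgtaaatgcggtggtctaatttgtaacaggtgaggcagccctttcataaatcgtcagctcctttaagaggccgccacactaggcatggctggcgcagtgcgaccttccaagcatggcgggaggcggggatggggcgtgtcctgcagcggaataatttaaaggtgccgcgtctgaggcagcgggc
The Gdpd3 stretch held none of these letters. The Gdpd2 stretch held TATAAA on the strand of the gene, starting 207 bases before the start, and CCAAT on the opposite strand, beginning 174 bases before it. The Pnpla6 stretch held GGGCGG once, on the strand of the gene and 208 bases before the start. Among 32851 promoter windows of the same length, 12.4% held TATAAA, 33.8% CCAAT, 32.7% GGGCGG and 18.6% TGGAAA. These matches describe the sequence only, and the arrays measured no binding.

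Gdpd5 was far lower in the senescence-prone SAM/P-8 than in the resistant SAM/R-1 on both diets, and its level on either diet was close to that on the other within each strain. In SAM/P-8 control the levels were -2.83, -3.59, -3.58 and -3.50 on replicates 1 to 4 (mean -3.37 ± 0.36, SD, n = 4). In SAM/P-8 CCH they were -3.18, -3.65, -3.30 and -2.53 (mean -3.16 ± 0.47, SD, n = 4). The SAM/R-1 control arrays read 0.55, 0.48, 0.35 and 0.26 (mean 0.41 ± 0.13, SD, n = 4). The SAM/R-1 CCH arrays read 0.51, 0.64, 0.52 and 0.55 (mean 0.56 ± 0.06, SD, n = 4). All 8 SAM/P-8 arrays lay below all 8 SAM/R-1 arrays, with processed signals of 88.5 to 213 against 1204 to 1576, and within each strain the diet groups overlapped.

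The strain difference of Gdpd5 was -3.78 ± 0.20 (SE, 95% interval -4.21 to -3.36) on the control diet, 13.8-fold lower in SAM/P-8. On the CCH diet it was -3.72 ± 0.20 (95% interval -4.15 to -3.29), or 13.2-fold lower. These values chose the gene and are not tested. On the control diet 11 of 29008 probes had a lower difference, and on the CCH diet 13 of 29007. With another background correction (normexp, closing section) the differences were -3.18 and -3.01. In whole tissue, fewer cells of a type and less RNA per cell cannot be told apart. Gdpd5 had 1 probe, so no other probe of the gene was there to compare. A difference of this probe alone and a difference of the gene's RNA cannot be told apart.

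**Figure D1:**
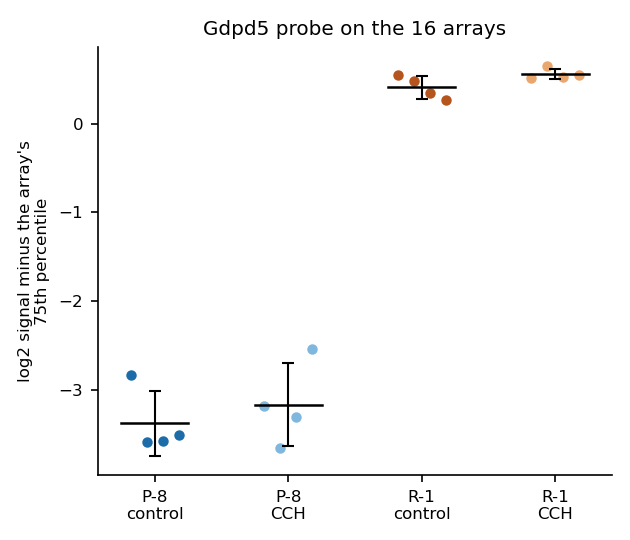
Level of the Gdpd5 probe (log2 signal minus the 75th percentile of the array, vertical axis) on each of the 16 arrays, in 4 groups of 4. Points are arrays in replicate order, the horizontal line is the mean and the bar 1 SD either way; the SAM/P-8 arrays lie between -3.65 and -2.53 and the SAM/R-1 arrays between 0.26 and 0.64.

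The Gdpd5 arrays were spread more widely within the SAM/P-8 groups. Its SD of 0.36 in SAM/P-8 control was above that of 90.2% of the 1597 probes whose mean lay within 0.25 of its own, and the SD of 0.47 in SAM/P-8 CCH was above that of 93.9% of 1579 such probes. In SAM/R-1 control the SD of 0.13 was above 79.0% of 1608 such probes and in SAM/R-1 CCH the SD of 0.06 above 28.2% of 1610. The highest arrays of the 2 SAM/P-8 groups were control replicate 1 at -2.83 and CCH replicate 4 at -2.53. The first of these had the highest summed level of its group for astrocyte markers (78.8 against 63.4 to 68.7, 6 of 6 markers measured), for markers of endothelium and pericytes (18.7 against 14.9 to 17.0, 6 of 6) and for markers of meninges and fibroblasts (28.5 against 17.3 to 24.0, 6 of 6). The second had the highest summed levels of its group for oligodendrocyte-lineage markers (192 against 112.3 to 120.5, 9 of 9), for astrocyte markers (71.8 against 58.3 to 61.9), for markers of endothelium and pericytes (17.3 against 13.5 to 15.5), for thalamus and hypothalamus (6.22 against 2.55 to 3.42), for interneurons (28.7 against 22.0 to 25.5), for microglia (11.6 against 10.7 to 10.8) and, as given above, for striatal markers. On SAM/P-8 control replicate 1 striatal markers (10.6 against 9.12 to 9.53) and markers of thalamus and hypothalamus (3.35 against 2.89 to 3.27) were also highest of the group. Microglia markers were lowest of the group there (9.84 against 11.2 to 11.4). Summed markers of astrocytes, of endothelium and pericytes, of striatum and of thalamus and hypothalamus were thus highest of their group on both arrays. For striatum on SAM/P-8 control replicate 1 this held for the sum only. The mean log2 level of the 8 striatal markers, each minus its own mean over the 16 arrays, was lowest of the group there (-0.61 against -0.54 to -0.13). The part of these cells and regions in the Gdpd5 level was not tested. Without SAM/P-8 control replicate 1 the strain difference on the control diet was -3.96, and without SAM/P-8 CCH replicate 4 that on the CCH diet was -3.93.

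CCH did not move Gdpd5 past the test in either strain. The CCH effect (CCH minus control) was 0.21 ± 0.20 (SE, adjusted p = 0.595 by limma, 95% interval -0.22 to 0.64) in SAM/P-8 and 0.15 ± 0.20 (adjusted p = 0.832, 95% interval -0.28 to 0.57) in SAM/R-1. In SAM/P-8 the size rested on the 2 arrays named above, as it was -0.0014 without SAM/P-8 CCH replicate 4 and 0.39 without SAM/P-8 control replicate 1. The strain by diet interaction was 0.06 ± 0.28 (adjusted p = 0.988, 95% interval -0.54 to 0.66).

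Across the other members, strain differences were small beside that of Gdpd5 and went in both directions. On the control diet 1 of 8 probes was called, higher in SAM/P-8, where 13.8% of all 29008 probes were called and 6.03% were higher. With CCH 2 of 8 were called, both lower, against 13.5% of all probes called and 7.07% lower. The median difference of the 8 probes was 0.0034 on the control diet and 0.0050 on the CCH diet, beside medians of -0.018 on both diets over all probes. The groups did not overlap for 2 of 8 probes on each diet, where 19.5% and 20.6% of all probes did not.

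Gdpd1 and Gdpd3 encode the enzymes GDE4 and GDE7, which act as lysophospholipases D and release lysophosphatidic acid or N-acylethanolamines. Gdpd3 was higher in SAM/P-8 on the control diet. Its levels were 0.25, 0.28, 0.10 and 0.11 in SAM/P-8 control (mean 0.19 ± 0.09, SD, n = 4) and -0.27, -0.20, -0.25 and -0.25 in SAM/R-1 control (mean -0.24 ± 0.03, SD, n = 4). The groups did not overlap, and the difference of 0.43 ± 0.07 (SE, 1.35-fold, adjusted p = 0.000580 by limma) remained called under 25 of 25 alternatives, with adjusted p between 9.32e-05 and 0.00346. On the CCH diet the levels were -0.05, 0.03, -0.04 and -0.13 in SAM/P-8 (mean -0.05 ± 0.07, SD, n = 4) and -0.44, -0.19, -0.09 and -0.18 in SAM/R-1 (mean -0.23 ± 0.15, SD, n = 4). These groups overlapped, with a difference of 0.18 ± 0.07 (adjusted p = 0.106).

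Within SAM/P-8, Gdpd3 was lower on all 4 CCH arrays than on all 4 control arrays, but the difference of -0.23 ± 0.07 (SE, 95% interval -0.38 to -0.08) had an adjusted p of 0.106 by limma. In SAM/R-1 the CCH effect was 0.02 ± 0.07 (adjusted p = 0.949). The interaction of -0.25 ± 0.10 (95% interval -0.46 to -0.04) had an adjusted p of 0.787, so a difference of the CCH effect between the strains was not shown.

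The probes of Gdpd1 disagreed in direction. The dimmer probe was higher in SAM/P-8 by 0.17 ± 0.07 (SE) on the control diet, where the groups did not overlap (adjusted p = 0.101 by limma), and by 0.20 ± 0.07 on the CCH diet (adjusted p = 0.0611, past the threshold under 5 of 25 alternatives). The brighter probe gave -0.06 ± 0.06 (adjusted p = 0.540) and -0.03 ± 0.06 (adjusted p = 0.738). No direction is therefore given for the gene.

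Gdpd2 encodes GDE3, a membrane relative of GDE2 that acts on glycerophosphoinositol and is known from osteoblast differentiation. It was lower in SAM/P-8 on the CCH diet, and the difference on the control diet did not pass the test. The levels were -1.54, -1.64, -1.45 and -1.35 in SAM/P-8 control (mean -1.50 ± 0.12, SD, n = 4) against -1.32, -1.26, -0.997 and -1.37 in SAM/R-1 control (mean -1.24 ± 0.17, SD, n = 4). On the CCH diet they were -1.37, -1.43, -1.63 and -1.50 (mean -1.48 ± 0.11, SD, n = 4) against -1.24, -1.26, -1.07 and -1.21 (mean -1.19 ± 0.09, SD, n = 4). The groups overlapped on the control diet, where the difference was -0.26 ± 0.09 (SE, adjusted p = 0.0614 by limma), and not on the CCH diet, where it was -0.29 ± 0.09 (1.22-fold, adjusted p = 0.0420). The call on the CCH diet was lost under 14 of 25 alternatives, with adjusted p from 0.0204 to 0.132. Of these, 10 left out 1 array, among them SAM/R-1 CCH replicate 3 (difference -0.25, adjusted p = 0.123) and SAM/P-8 CCH replicate 3 (difference -0.24, adjusted p = 0.106).

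Pnpla6 encodes neuropathy target esterase, a phospholipase of the endoplasmic reticulum that forms glycerophosphocholine and whose loss damages long axons. Its brighter probe was lower in SAM/P-8 on the CCH diet. There it read 0.86, 0.81, 0.90 and 0.78 in SAM/P-8 (mean 0.84 ± 0.05, SD, n = 4) and 0.98, 1.03, 1.03 and 0.98 in SAM/R-1 (mean 1.00 ± 0.03, SD, n = 4), and the groups did not overlap. The difference was -0.17 ± 0.05 (SE, 1.12-fold, adjusted p = 0.0299 by limma). The call was lost under 8 of 26 alternatives, among them leaving out each of SAM/P-8 CCH replicates 2 and 4 (adjusted p = 0.0718 and 0.0729) and SAM/R-1 CCH replicates 2, 3 and 4 (0.0688, 0.0776 and 0.0544). On the control diet the difference was -0.13 ± 0.05 (adjusted p = 0.0777). The dimmer probe did not share it, with 0.14 ± 0.07 (adjusted p = 0.261) on the control diet and -0.01 ± 0.07 (adjusted p = 0.923) on the CCH diet, and the mean of both probes gave -0.09 (adjusted p = 0.244) on the CCH diet.

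Gde1, which encodes an enzyme that hydrolyses glycerophosphoinositol and glycerophospho-N-acylethanolamines, had means between 3.31 and 3.41 in the 4 groups, and neighbouring groups overlapped in order of level. Its strain difference was 0.07 ± 0.06 (SE, adjusted p = 0.476 by limma) on the control diet and 0.02 ± 0.06 (adjusted p = 0.813) on the CCH diet. Gpcpd1 encodes the cytosolic glycerophosphocholine phosphodiesterase GDE5. Its group means lay between -1.55 and -1.45 and overlapped likewise, with strain differences of -0.09 ± 0.09 (adjusted p = 0.576) and 0.03 ± 0.09 (adjusted p = 0.880).

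**Figure D2:**
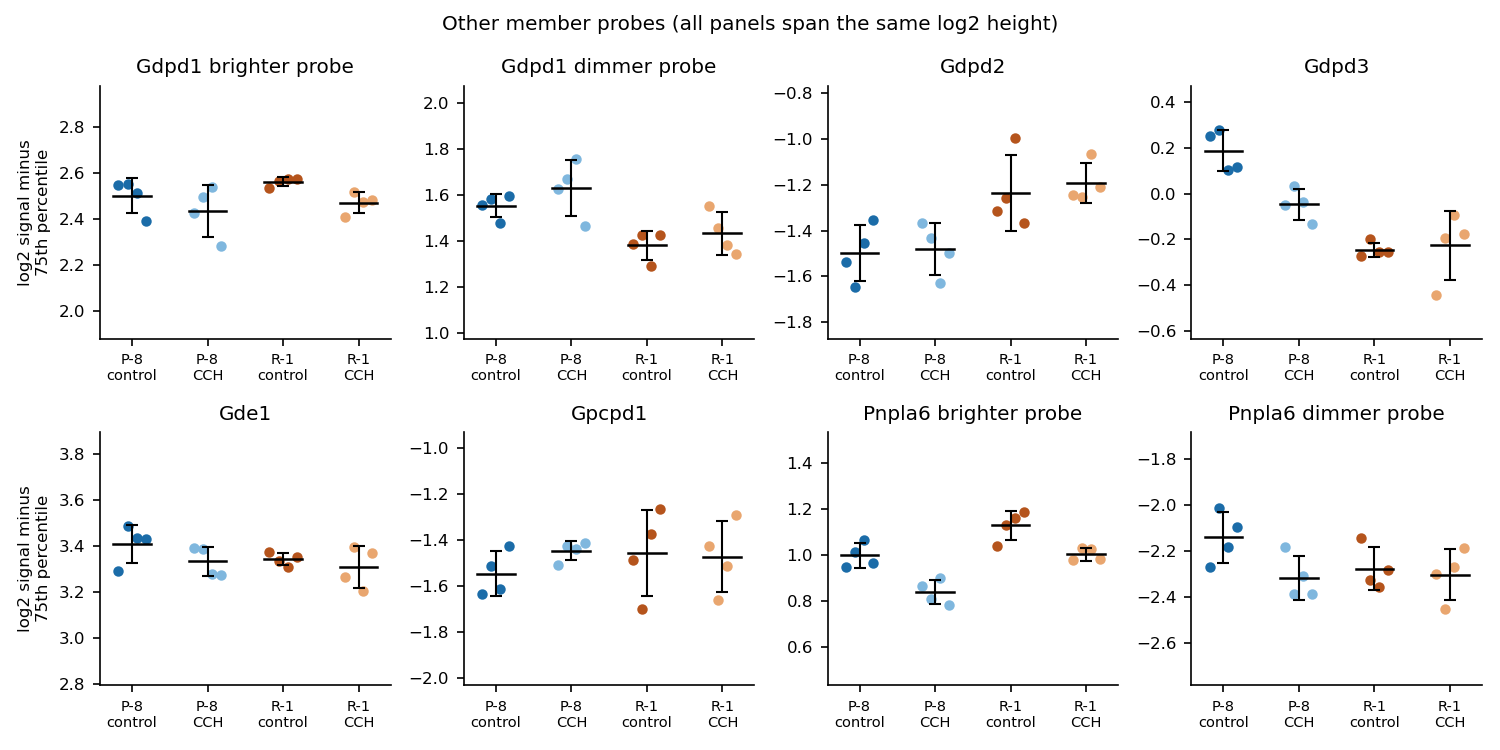
Levels of the other 8 member probes (log2 signal minus the 75th percentile of the array) on each array, 1 panel per probe, all panels with the same height. Points are arrays, lines are means and bars 1 SD either way (n = 4); Gdpd3 is highest in SAM/P-8 control and the brighter Pnpla6 probe is lowest in SAM/P-8 CCH.

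CCH changed no member past the test within a strain. In SAM/P-8, 0 of 9 probes were called where 0.838% of all probes were, and 2 of 9 did not overlap between the diets (Gdpd3 and the brighter Pnpla6 probe) where 9.73% of all probes did not. In SAM/R-1, 0 of 9 were called against 0.114% of all probes, and 2 of 9 did not overlap (the brighter probes of Pnpla6 and Gdpd1) against 8.69%. The interaction gave 0 of 9 against 0.172%. At an unadjusted p under 0.05, limma counted 3 of 9 in SAM/P-8 (19.1% of all probes), 1 in SAM/R-1 (10.9%) and 1 for the interaction (5.61%).

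The brighter Pnpla6 probe was lower on the CCH diet in both strains. In SAM/P-8 control it read 0.95, 1.01, 1.07 and 0.96 (mean 1.00 ± 0.05, SD, n = 4), above all 4 CCH arrays, and the CCH effect was -0.16 ± 0.05 (SE, adjusted p = 0.0996 by limma). In SAM/R-1 control it read 1.04, 1.13, 1.16 and 1.19 (mean 1.13 ± 0.06, SD, n = 4), again above all 4 CCH arrays, with an effect of -0.13 ± 0.05 (adjusted p = 0.338). Averaged over the strains the effect was -0.14 ± 0.03 (adjusted p = 0.0332), the 1 call among 9 member probes, where 4.16% of all probes were called and 2.06% were lower. This average was added after the values of both strains had been seen. The call was lost in 9 of 16 fits that left out 1 array (adjusted p at most 0.0690), with normexp (0.0701) and with the mean of both probes (-0.12, adjusted p = 0.0573), which is 11 of 25 alternatives. The dimmer probe gave -0.10 ± 0.05 (adjusted p = 0.260). The arrays whose omission ended it were replicate 1 of SAM/P-8 CCH, replicates 2 and 3 of SAM/P-8 control, replicates 1, 3 and 4 of SAM/R-1 CCH and replicates 2, 3 and 4 of SAM/R-1 control.

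**Figure D3:**
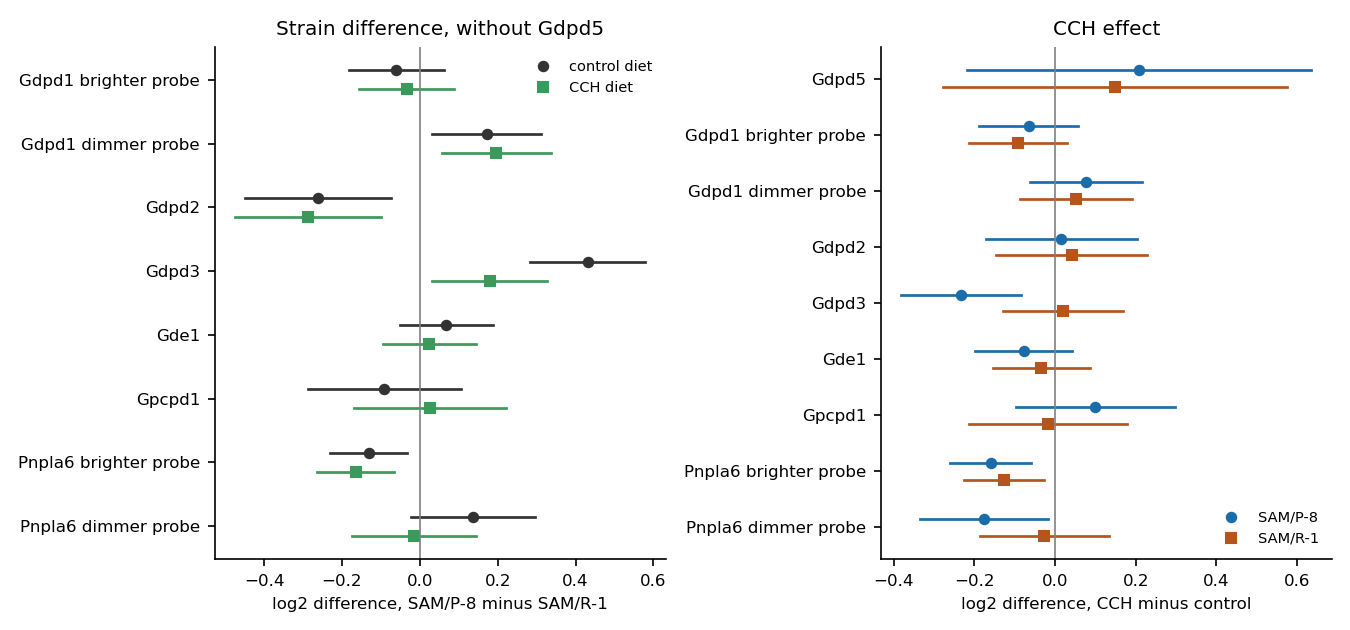
Log2 differences of the member probes with 95% intervals (horizontal axes). The left panel gives SAM/P-8 minus SAM/R-1 on each diet for the 8 probes other than Gdpd5, and the right panel gives CCH minus control in each strain for all 9; the interval of Gdpd3 on the control diet, 0.28 to 0.58, lies farthest above 0 on the left, and the Gdpd5 intervals on the right, -0.22 to 0.64 and -0.28 to 0.57, are the widest.

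Around the members, 8 lists of related genes held 119 genes, of which 107 were measured. In the strain difference on the control diet 4 of the 107 were higher and 8 lower in SAM/P-8 (11.2% called, against 13.8% of all probes). With CCH 3 were higher and 7 lower (9.35% called against 13.5%, with 6.39% of all probes higher and 7.07% lower). CCH lowered 1 in SAM/P-8 (0.935%, where 0.348% of all probes were lower), 0 were called in SAM/R-1, and the interaction gave 0. In the CCH effect averaged over the strains 3 of the 107 were called (2.8%, against 4.16% of all probes). The shares in the strain differences and in this average are no higher than their background shares. The lists are described by their counts and values only.

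The genes for proteins on which GDE2 acts, for its partners and for the Notch pathway they touch gave more calls on the control diet than any of the other 7 lists. Of 12 genes measured, 4 were lower and 0 higher in SAM/P-8 on the control diet (7.76% of all probes were lower). The median difference over the list was -0.05 against -0.02 over all probes. The count of 4 fell to 1 or 2 under 12 of 25 alternatives and was 1 with normexp. Smaller falls are not among these 12 (closing section). Reck encodes a GPI-anchored inhibitor of ADAM10 that GDE2 releases, and it was lower at -2.22 ± 0.15 (SD, n = 4) against -1.74 ± 0.03, a difference of -0.48 ± 0.09 (SE, adjusted p = 0.00266 by limma). Dll1 encodes a Notch ligand whose shedding by ADAM10 is held back by RECK, and it differed by -0.33 ± 0.10 (adjusted p = 0.0422). Hes5, a transcriptional target of Notch, read 2.31 ± 0.34 (SD, n = 4) against 3.12 ± 0.32, lower by -0.81 ± 0.18 (SE, adjusted p = 0.00668). Gpc3, a GPI-anchored glypican, differed by -0.60 ± 0.18 (adjusted p = 0.0408) with overlapping groups.

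Of the 12 genes, Hes5 alone was called on the CCH diet, at -0.66 ± 0.18 (SE, adjusted p = 0.0257 by limma), and the list median was -0.11. Reck was at -0.26 ± 0.09 (adjusted p = 0.0836), Dll1 at -0.30 ± 0.10 (adjusted p = 0.0589) and Gpc3 at -0.40 ± 0.18 (adjusted p = 0.173). Hes1, another Notch target, was at 0.20 ± 0.11 (adjusted p = 0.263) on the control diet and 0.17 ± 0.11 (adjusted p = 0.346) on the CCH diet. Prdx1, which activates GDE2, was at 0.21 ± 0.07 (adjusted p = 0.0655) and 0.18 ± 0.07 (adjusted p = 0.107). Reck and Hes5 on the control diet kept their calls in 16 of 16 fits that left out 1 array, while Dll1 lost its call in 11 and Gpc3 in 9, so that the control count of 4 fell to 2 in 9 of them. The arrays concerned were replicates 1, 2 and 3 of SAM/P-8 control, replicates 2, 3 and 4 of SAM/R-1 control, replicate 2 of SAM/P-8 CCH and replicates 1 and 4 of SAM/R-1 CCH. Dll1 alone of the 4 lost its call without SAM/P-8 CCH replicate 3 or SAM/R-1 control replicate 1 (adjusted p = 0.0523 and 0.0895 by limma). With CCH the count was 3 without SAM/P-8 CCH replicate 4, 2 without SAM/P-8 control replicate 2 or 4 or SAM/R-1 CCH replicate 2, and 0 without SAM/P-8 CCH replicate 1, 2 or 3 or SAM/R-1 CCH replicate 1 or 3. Hes5 lost its call there in 6 of 16 fits (highest adjusted p 0.0730). Summed markers of endothelium and pericytes were 14.9 to 18.7 in SAM/P-8 control and 9.33 to 11.95 in SAM/R-1 control, and the part of cell make-up in these differences was not tested.

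**Figure D4:**
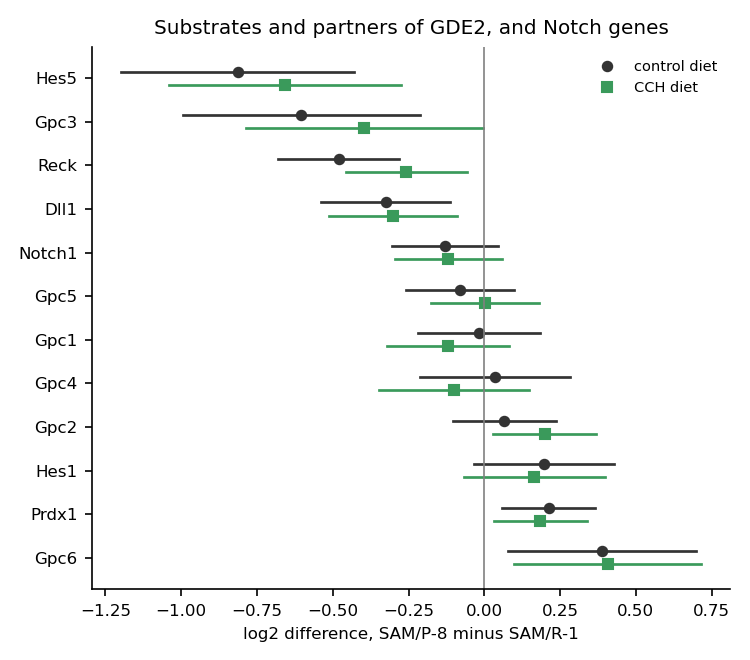
Log2 difference, SAM/P-8 minus SAM/R-1, with 95% intervals for the 12 measured genes of the GDE2 and Notch list on each diet, ordered by the control diet. Hes5, Gpc3, Reck and Dll1 lie lowest, at -0.81, -0.60, -0.48 and -0.33 on the control diet, and Gpc6 highest at 0.39 (not called).

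In the CCH effect averaged over the strains, 1 of the same 12 genes was higher and 1 lower, where 2.10% and 2.06% of all probes were. Gpc6, a glypican that GDE2 releases in neuroblastoma cells, was higher by 0.45 ± 0.10 (SE, adjusted p = 0.0330 by limma), and its other probe gave 0.36. Gpc1 was lower by 0.27 on the log2 scale (-0.27 ± 0.07, adjusted p = 0.0416). Neither passed within a strain, and the calls were lost in 9 of 16 fits for Gpc6 and in 11 of 16 for Gpc1 when 1 array was left out.

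Among enzymes that form or consume glycerophosphodiesters by other routes, 2 of 19 were higher and 0 lower on the control diet. Pnpla7, a lysophospholipase related to Pnpla6, was higher in SAM/P-8 on both diets, by 0.28 ± 0.07 (SE, adjusted p = 0.0120 by limma) and 0.23 ± 0.07 (adjusted p = 0.0355). Pla2g15, the lysosomal phospholipase A2, was higher by 0.18 ± 0.05 (adjusted p = 0.0293) on the control diet. Lypla2, an acyl-protein thioesterase, was lower on the CCH diet (-0.22 ± 0.06, adjusted p = 0.0249), which made 1 of 19 higher and 1 lower.

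Choline and phosphatidylcholine synthesis had 0 of 17 measured genes called on the control diet, with the smallest p for Pisd (-0.19 ± 0.08, SE, adjusted p = 0.143 by limma) and Pemt (-0.24 ± 0.11, adjusted p = 0.159). With CCH 2 of 17 were lower. Pemt, which methylates phosphatidylethanolamine, was at -0.37 ± 0.11 (adjusted p = 0.0343), and its other probe at -0.15. Phospho1, a phosphatase of phosphocholine, was at -0.33 ± 0.09 (adjusted p = 0.0289). Phospho1 was also the 1 gene lowered by CCH in SAM/P-8, from -5.09 ± 0.06 (SD, n = 4) to -5.60 ± 0.20, a difference of -0.51 ± 0.09 (SE, adjusted p = 0.0258). Its probe was well above background on 3 of 4 and 2 of 4 of these arrays, and with normexp the difference turned to 0.068 (adjusted p = 0.948). Averaged over the strains, the CCH effect on Phospho1 was -0.33 ± 0.07 (adjusted p = 0.0227).

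Among genes that make or acylate glycerol 3-phosphate, 0 of 17 were higher and 1 lower on the control diet, and 1 was higher and 2 lower on the CCH diet. Agpat5, an acyltransferase that forms phosphatidic acid, was lower in SAM/P-8 by -0.70 ± 0.06 (SE, adjusted p = 5.82e-07 by limma) and -0.73 ± 0.06 (adjusted p = 3.84e-07), while its other probe gave -3.04 and -3.50. Lpin3, a phosphatidate phosphatase, was higher by 0.44 ± 0.12 (adjusted p = 0.0273) on the CCH diet, and with normexp it was at -0.050 (adjusted p = 0.935). Gpat4, a glycerol phosphate acyltransferase, was at -0.14 ± 0.04 (adjusted p = 0.0313) there, and its other probes were at 0.12 and 0.07.

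In organic osmolyte handling 1 of 10 genes was lower on each diet. On the control diet it was Cdo1, a cysteine dioxygenase of taurine synthesis (-0.28 ± 0.08, SE, adjusted p = 0.0362 by limma). With CCH it was Nfat5, the transcription factor that responds to hypertonicity (-0.22 ± 0.06, adjusted p = 0.0180), whose other probes were at -0.25 and -0.12.

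In endocannabinoid and N-acylethanolamine metabolism 1 of 11 was higher on each diet and 0 lower. Abhd6, a hydrolase of 2-arachidonoylglycerol, was higher in SAM/P-8 by 0.48 ± 0.07 (SE, adjusted p = 0.000334 by limma) and 0.39 ± 0.07 (adjusted p = 0.00231), and both calls held under 25 of 25 alternatives. In lysophosphatidic acid signalling 1 of 12 was higher and 1 lower on the control diet. Plpp1, a phosphatase of lysophosphatidic acid, was higher (0.33 ± 0.08, adjusted p = 0.00882, its other probe 0.16) and Plppr3, a phosphatase-related protein of neurons, lower (-0.38 ± 0.11, adjusted p = 0.0341). With CCH 0 of 12 were called, with Plppr2 at -0.34 ± 0.12 (adjusted p = 0.0658) and Plpp1 at 0.19 ± 0.08 (adjusted p = 0.114).

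Among genes that attach or remodel GPI anchors, 1 of 9 was lower on the control diet. Pigu, a subunit of the GPI transamidase, was at -0.16 ± 0.04 (SE, adjusted p = 0.0279 by limma), and its other probe at -0.29. With CCH 0 of 9 were called, with Pigu at -0.14 ± 0.04 (adjusted p = 0.0547, its other probe 0.11) and Pgap3 at -0.11 ± 0.05 (adjusted p = 0.133). Among the genes named in the other 7 lists, leaving out 1 array ended no call of Agpat5, Abhd6, Plpp1 or of Pnpla7 on the control diet. It ended the other calls in 1 to 6 of 16 fits.

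Genes next to Gdpd5 and next to the 3 members with a called strain difference were counted in the order of the RefSeq table. Over all probes 13.8% were called on the control diet (6.03% higher, 7.76% lower) and 13.5% on the CCH diet (6.39% higher, 7.07% lower). Gdpd5, Gdpd3 and Gde1 are all on chromosome 7 in the RefSeq table. Of the 20 measured genes nearest to Gdpd5 in gene order, 1 was higher and 1 lower on the control diet and 0 were called on the CCH diet. Tsku, a secreted proteoglycan gene, was at -0.55 ± 0.13 (SE, adjusted p = 0.00926 by limma) and Wnt11, a Wnt ligand, at 0.34 ± 0.07 (adjusted p = 0.00560). Over the 20 the differences ran from -0.72 to 0.34 on the control diet, where Gdpd5 was at -3.78. Of the 20 genes nearest to Gdpd3, 3 were lower on the control diet, namely Cln3 (-0.16 ± 0.05, adjusted p = 0.0405), Il27 (-0.29 ± 0.06, adjusted p = 0.00737) and Tmem219 (-0.23 ± 0.06, adjusted p = 0.0157), and 0 were higher; with CCH 0 of the 20 were called. Among 20 genes near Gdpd2 on chromosome X, Eda was lower on the control diet (-0.24 ± 0.07, adjusted p = 0.0305), while on the CCH diet it was at -0.098 ± 0.067 (adjusted p = 0.369) and 0 of the 20 were called. Xab2 was lower among 15 near Pnpla6 on chromosome 8, on both diets (-0.29 ± 0.06, adjusted p = 0.00339, and -0.32 ± 0.06, adjusted p = 0.00175).

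The profile of Gdpd5 over the 16 arrays was compared with those of 13458 other genes, by the root mean square of the differences on the log2 scale after each gene's mean was subtracted. The 5 most similar genes were Capg at 0.28, Prdm16 at 0.42, Ppp1r1a at 0.50, Zfp551 at 0.54 and Trub1 at 0.73. On the control diet each was lower in SAM/P-8, with differences of -3.54 ± 0.20 (SE) for Prdm16, -3.12 ± 0.10 for Ppp1r1a, -2.97 ± 0.07 for Zfp551 and -2.46 ± 0.10 for Trub1. The likeness was chosen on these values and is a description only. Zfp551 is on chromosome 7 like Gdpd5, and the other 4 are on chromosomes 6, 4, 15 and 19. Capg was well above background on 1 of 4 arrays in each SAM/P-8 group and on 4 of 4 in each SAM/R-1 group, so its difference is a bound, at least 10.4-fold lower on the control diet, and its place in the order rests partly on values near background. The other probe of Ppp1r1a gave -3.02 on the control diet, while that of Trub1 gave -0.30 there and 0.079 on the CCH diet.

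**Figure D5:**
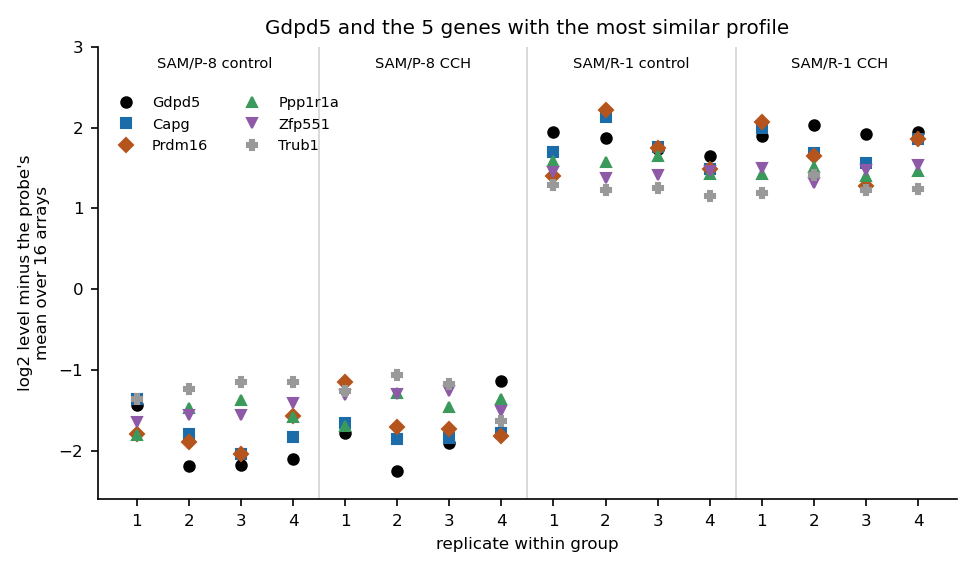
Levels of Gdpd5 and of the 5 genes with the most similar profile, each minus its own mean over the 16 arrays (log2, vertical axis), by group and replicate (horizontal axis). All 6 genes lie below 0 on the 8 SAM/P-8 arrays and above 0 on the 8 SAM/R-1 arrays.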

How the data were processed

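Hippocampal RNA was hybridised to 1-colour (Cy3) Agilent arrays, 1 per sample. Per the file headers, the authors' spot intensity values were made with Agilent Feature Extraction 9.5.3.1, and the processed signal, which already has background subtracted, was used here. The authors' deposited value table is on a log2 scale, correlated at 0.999858 or more with the scanner values of the same array after each probe was centred, and served as an alternative. Its column medians run from -0.0380 to 0.0364, its centring is per probe, and its scaling between arrays is not given in the sources used here.

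Control spots and 187 non-uniform spots were left out, log2 was taken, the 75th percentile of each array was subtracted, spots of a probe were averaged, and 29009 of 41174 probes were kept, namely each probe that passed Agilent's background test on the 4 arrays of some group. Differences were fitted over all 16 arrays with limma 3.58.1 in R 4.3.3 (lmFit and eBayes, 12 residual degrees of freedom), with Benjamini-Hochberg adjustment over the probes tested, after the steps were tested on simulated data. Probe accessions were named through the RefSeq gene table, which gave a symbol for 24844 probes and none for 16330. The gene table is of GRCm38.p6 and the array headers name mm9, so the table served for names, chromosomes and gene order only, and the printed promoter coordinates are those of RefSeq on GRCm38.p6. The related gene Gdpd4 had a probe well above background on 0 of 16 arrays and is no member.

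The members, the gene lists and the tests were chosen with earlier results of these data known. A gene with several probes was represented in the lists by its brightest probe. Up to 4 called genes with the largest difference were named per list and strain difference, or, with none called, the 2 of smallest p, with called neighbours and the 5 nearest profiles. Alternatives were normexp background correction (offset 50), quantile normalization, another set of scaling probes, other probe filters, trend and robust settings, the compared groups alone, the authors' value table, the replicate number as a block, the mean of a gene's probes, and each array left out in turn. The scanner files used here hold median spot signals, so normexp was run on these in place of mean signals. The average of both CCH effects and the alternatives for the related genes were added after values had been seen. Only 4 arrays per group limit the precision. The samples of a replicate number did not deviate together, with 6 of 24 same-numbered pairs correlated above 0.1 (20 of 72 pairs with different numbers), so the numbers were not taken to pair samples.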

Additional observations from a re-analysis of the deposited data

Results flagged for a closer look

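The Gdpd5 level of SAM/P-8 control replicate 1, -2.83, stood apart from the other 3 arrays of its group, which lay between -3.59 and -3.50. Its gap to the nearest of them was 0.886 of the group's whole range, above Dixon's 95% critical value for 4 arrays. Of 36 sets of 4 arrays examined (9 member probes in 4 groups), this was the 1 that passed, and chance alone passes about 1 set in 20.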

How the results depend on the processing

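The count of members called in the strain difference on the control diet (1) was 2 with quantile normalization and with the scale set by probes well above background on all arrays, and 1 to 2 with 1 array left out (2 without SAM/P-8 control replicate 4 or SAM/R-1 control replicate 1 or 4). On the CCH diet the count (2) was 3 with quantile normalization and with trend and robust settings, which added the dimmer Gdpd1 probe, 0 with normexp, 1 without the probe filter, 1 with the compared groups alone and 0 to 2 with 1 array left out (0 without SAM/P-8 CCH replicate 2 or SAM/R-1 CCH replicate 2, 3 or 4, and 1 without SAM/P-8 CCH replicate 3 or 4, SAM/P-8 control replicate 3 or SAM/R-1 control replicate 1 or 2). Without SAM/P-8 CCH replicate 4 both main calls were lost (adjusted p by limma 0.0803 for Gdpd2 and 0.0729 for the brighter Pnpla6 probe). The 1 probe called there was the dimmer Gdpd1 probe. With the replicate number as a block the count on the CCH diet was 1, as Gdpd2 had an adjusted p of 0.0639 by limma, and the block changed no other call of a member probe. In the averaged CCH effect the count (1) was 0 with normexp and 0 to 1 with 1 array left out. The counts of 0 in the CCH effects and the interaction stayed 0 under every alternative run. With normexp, the strain differences of Gdpd5 were -3.18 and -3.01, the CCH effect on Phospho1 turned to 0.068 in SAM/P-8 and 0.24 on average, and Lpin3 turned to -0.050 on the CCH diet; the cause was not tested. The count of GDE2-list genes lower on the control diet (4) was 1 with normexp, 2 without the probe filter, 3 with the block and 2 with the compared groups alone; on the CCH diet (1) it was 3 with quantile normalization and 2 with the block. Over all probes, normexp called 1045 and 919 in the strain differences in place of 3999 and 3903, 2 and 0 in place of 243 and 33 in the CCH effects, 0 in place of 50 in the interaction and 267 in place of 1207 in the average. The CCH effect in SAM/P-8 also gave 136 with quantile normalization, 154 without the filter, 132 with the block and 28 with its groups alone, that in SAM/R-1 gave 17 with probes above background on all arrays, 20 with the block and 9 with trend and robust settings, the interaction gave 33 with quantile normalization and 17 with that filter, and the average gave 3257 without the filter. With 1 array left out, the CCH effects gave 72 to 437 in SAM/P-8 and 2 to 45 in SAM/R-1, and the average gave 303 to 2118.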
